A study of Mus musculus with 32 samples.

Results

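Olfactory receptor genes on mouse chromosomes 9, 10 and 11 were selected in RefSeq's annotation of GRCm38.p6 as protein-coding genes whose symbol starts with Olfr, or with Or and a digit. The rule found 281 genes, of 1110 olfactory receptor genes and 21887 protein-coding genes in the genome. They divide into 130 genes on chromosome 9, 68 on chromosome 10 and 83 on chromosome 11. H3K9me3, trimethylation of histone H3 at lysine 9 and a mark of heterochromatin, was profiled by ChIP-seq in male germ cells of the testis at the embryonic stages E13.5 and E16.5, on the day of birth (P0) and on the third day after it (P3). All animals carried the Mvh-Venus transgene, a fluorescent reporter for germ cells. The animals were Morc1 (+/-), called het, or Morc1 (-/-), called KO, so the control group also lacked 1 functional Morc1 allele. Morc1 encodes a nuclear ATPase of the germ line that takes part in transposon silencing. Each of the 8 groups of stage and genotype had 2 H3K9me3 samples and is represented by 1 peak list. A value below is therefore the value of 1 list, with no replicate error, and no test compares stages or genotypes. The intervals given are 95% Wilson intervals and cover counting error only.

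Olfactory receptors are G protein-coupled receptors that bind odorants at the surface of olfactory sensory neurons. Their genes lie in clusters that arose by tandem duplication, have a short intron-free coding sequence, and are expressed one allele per neuron. In olfactory neurons the receptor genes that are not chosen are packed in heterochromatin that carries H3K9me3. Germ cells are not sensory neurons, and most receptor genes have no known role in them. No expression values were used here, so neither the identity of the sorted cells nor receptor expression was checked.

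The 8 lists held between 52628 and 93523 peaks, which covered between 166.1 and 339.5 Mb. The E13.5 het list was the smallest on both counts and the P0 KO list the largest. The commonest peak length was 1001 bp in every list. Read depth and the calling threshold are unknown, and list size moves with both. The median length of the 281 genes was 945 bp (range 918 to 28487 bp), and the length of 224 of them (79.7%) was a multiple of 3, so for most genes the model holds the coding length alone. A gene body is the interval from the start to the end of that model, and the flanks are the 5 kb on either side. Of the 281 regions, 73 share bases with the region of another of these genes, so neighbouring genes do not give independent values.

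The 300 bases around the start of a gene model, from 250 before it to 50 after, are printed for 5 genes of chromosome 9. They were chosen after their values were seen, as examples of 5 patterns. Other patterns, such as windows covered only at E16.5 or only from P0, are not shown. The letters are those of RefSeq, assembly GRCm38.p6, and capitals mark matches to TAATTA, the core of homeodomain sites, or to CCCNNGGG, the palindromic core of sites bound by Ebf factors. Lhx2 (a homeodomain protein) and Ebf1 are known regulators of olfactory receptor genes in sensory neurons. The window of Olfr77 (chr9:19916979-19917278, plus strand) lay wholly inside a peak in all 8 lists. The window of Olfr912 (chr9:38579994-38580293, plus strand) lay outside peaks at E13.5 and wholly inside them in the 6 later lists. The window of Olfr44 (chr9:39493939-39494238, minus strand) was covered in both E16.5 lists and in the het lists of P0 and P3, and was free of peaks in the KO lists of P0 and P3. The window of Olfr836 (chr9:19120707-19121006, plus strand) had the opposite pattern: it was covered in both E16.5 lists and in the KO lists of P0 and P3, and was free of peaks in the het lists of P0 and P3. The window of Olfr983 (chr9:40093509-40093808, minus strand) was free of peaks in all 8 lists.
Olfr77: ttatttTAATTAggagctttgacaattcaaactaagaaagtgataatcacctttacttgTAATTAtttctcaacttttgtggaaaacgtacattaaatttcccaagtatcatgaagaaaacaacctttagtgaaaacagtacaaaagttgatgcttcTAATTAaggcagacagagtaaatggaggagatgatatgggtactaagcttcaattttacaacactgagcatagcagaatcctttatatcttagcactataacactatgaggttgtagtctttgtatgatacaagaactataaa
Olfr912: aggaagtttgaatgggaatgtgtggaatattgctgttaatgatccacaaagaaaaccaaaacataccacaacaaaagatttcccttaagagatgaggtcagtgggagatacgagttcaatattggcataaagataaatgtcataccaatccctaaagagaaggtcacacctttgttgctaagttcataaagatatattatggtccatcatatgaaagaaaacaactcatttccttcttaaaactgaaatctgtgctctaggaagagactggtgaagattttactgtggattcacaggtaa
Olfr44: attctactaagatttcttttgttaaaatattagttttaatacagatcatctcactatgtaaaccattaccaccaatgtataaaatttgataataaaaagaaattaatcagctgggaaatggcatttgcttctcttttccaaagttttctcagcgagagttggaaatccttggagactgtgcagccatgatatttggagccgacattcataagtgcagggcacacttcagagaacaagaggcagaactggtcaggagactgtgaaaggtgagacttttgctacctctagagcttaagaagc
Olfr836: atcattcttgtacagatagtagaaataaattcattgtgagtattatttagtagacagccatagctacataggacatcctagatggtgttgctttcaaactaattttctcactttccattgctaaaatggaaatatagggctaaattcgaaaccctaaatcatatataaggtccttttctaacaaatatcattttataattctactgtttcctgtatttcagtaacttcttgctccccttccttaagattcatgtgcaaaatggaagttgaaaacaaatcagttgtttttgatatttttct
Olfr983: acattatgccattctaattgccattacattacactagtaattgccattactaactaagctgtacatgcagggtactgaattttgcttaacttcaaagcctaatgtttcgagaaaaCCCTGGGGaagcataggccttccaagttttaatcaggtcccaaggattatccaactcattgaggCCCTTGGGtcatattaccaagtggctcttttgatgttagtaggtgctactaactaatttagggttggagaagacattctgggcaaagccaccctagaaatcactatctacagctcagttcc
The Olfr77 window holds 3 TAATTA matches and the Olfr983 window 2 CCCNNGGG matches, while neither motif was found in the windows of Olfr912, Olfr44 and Olfr836.

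Peaks covered a larger share of the receptor genes and their flanks than of protein-coding genes as a whole. Gene bodies with their flanks were covered by peaks over 24.4% of their length in the E13.5 het list and 25.3% in the E13.5 KO list. The share was 36.6% and 35.0% at E16.5, 36.5% and 36.7% at P0, and 31.1% and 32.7% at P3, each time het before KO. The same share over all protein-coding genes was between 3.51% (E13.5 het) and 7.58% (P3 KO). The other 3530 protein-coding genes of chromosomes 9 to 11 had between 2.62% and 6.64%. With a median body of 945 bp, a receptor gene's region is mostly flank, and the region of a longer gene is less so. The part of gene length in these shares was not tested. Receptor genes of chromosome 2, with 12.2% to 27.8%, and of chromosome 7, with 5.96% to 19.1%, lay below the genes of chromosomes 9 to 11 in each list. The vomeronasal receptor genes, which encode pheromone receptors and also lie in tandem clusters, had between 21.3% and 30.3%.

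**Figure D1:**
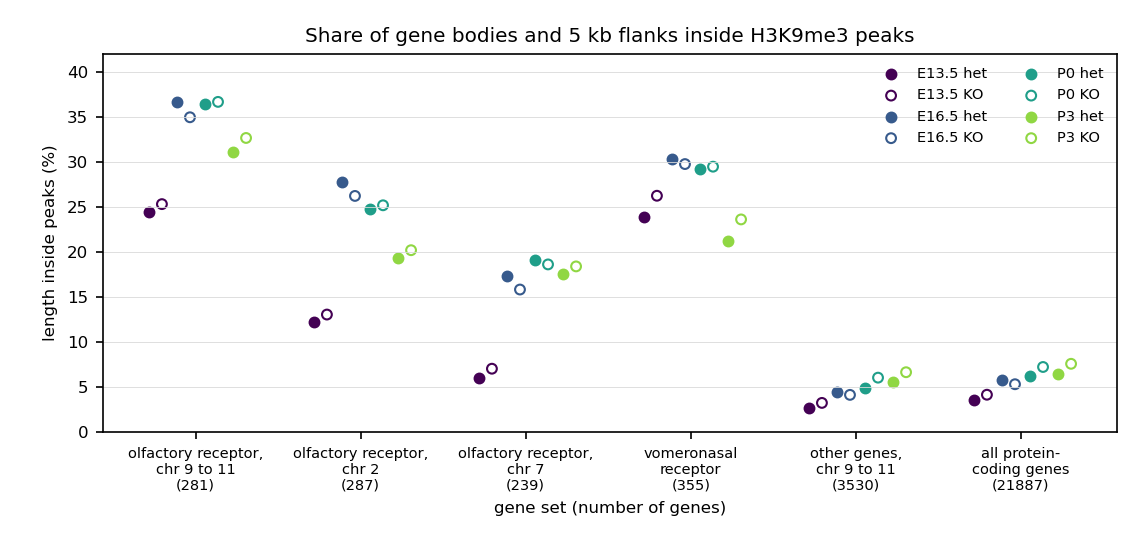
Share of the summed length of gene bodies and 5 kb flanks that lies inside H3K9me3 peaks (vertical axis, %), for 6 gene sets and 8 lists (filled circles het, open circles KO, colour by stage). The olfactory receptor genes of chromosomes 9 to 11 lie between 24.4% and 36.7%, and all protein-coding genes between 3.51% and 7.58%.

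The number of genes touched by a peak depends on gene length, which is short among the receptor genes. At E13.5, 71 gene bodies held at least 1 bp of a peak in the het list (25.3%, interval 20.5% to 30.7%) and 71 in the KO list, against 29.5% and 32.9% of all protein-coding genes. At E16.5 there were 113 in het (40.2%) and 106 in KO (37.7%), against 31.8% and 31.0%. At P0 there were 113 in each list, against 33.9% and 38.8%, and at P3 there were 108 in het (38.4%) and 113 in KO (40.2%), against 37.5% and 40.1%. Gene bodies were thus touched at a rate below that of all genes at E13.5, above it at E16.5 and within 1 percentage point of it at P3. The value of all genes at E13.5 lay inside the counting interval for het and above it for KO. With 71 genes in each list that interval was the same for both. It takes genes as independent, which neighbouring genes are not, so its place beside the value of all genes is no test. With the flanks included, 131 and 136 genes were touched at E13.5 (46.6% and 48.4%), against 38.4% and 43.0% of all genes. At E16.5 the counts were 183 and 179 (65.1% and 63.7%), against 42.8% and 41.8%. At P0 they were 197 and 193 (70.1% and 68.7%), against 46.6% and 51.6%. At P3 they were 178 and 177 (63.3% and 63.0%), against 48.8% and 51.3%. In a window of 10 kb around the midpoint, which has the same length for every gene, between 44.8% and 66.9% of the receptor genes and between 15.7% and 25.6% of all genes were touched.

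The gene body was touched in all 8 lists for 62 receptor genes (22.1%) and in no list for 140 (49.8%), which leaves 79 genes in between. Over all protein-coding genes the shares were close to these, 19.2% and 45.8%. Full coverage of the body set the receptor genes further apart from other genes than touch did, but it also depends on gene length. The median receptor gene body of 945 bp is shorter than a peak of the commonest length, 1001 bp. The part of gene length in the shares that follow was not tested. The body of 44 receptor genes (15.7%) lay wholly inside peaks in all 8 lists, against 209 of all protein-coding genes (0.955%) and 71 of the other 829 olfactory receptor genes (8.56%). Of these 44 genes, 18 lie in the cluster from Olfr20 to Olfr412 and 17 in the cluster from Olfr24 to Olfr18.

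Genes less than 500 kb apart were joined into clusters, which gave 11 clusters, and a cluster's span ran from 5 kb before its first to 5 kb after its last receptor gene. A pair of clusters was covered over more than 50% of the span from E13.5 to P0. One was the cluster from Olfr24 to Olfr18 on chromosome 9 (chr9:18749692-20341094, 35 genes, 1591 kb). Its covered share was 52.4% in het and 56.4% in KO at E13.5, 57.6% and 54.5% at E16.5, 54.9% and 55.0% at P0, and 42.7% and 43.5% at P3. The other was the cluster from Olfr20 to Olfr412 on chromosome 11 (chr11:73345859-74370609, 30 genes, 1025 kb). It had 58.0% and 62.3% at E13.5, 62.8% and 63.4% at E16.5, 62.1% and 64.4% at P0, and 55.9% and 59.8% at P3. No other cluster passed 34.7% in any list. In the chromosome 11 cluster 50.3% of the span (515.4 kb) lay inside peaks in all 8 lists, in the chromosome 9 cluster 36.6% (582.4 kb), and in the cluster from Olfr160 to Olfr986 7.47%.

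**Figure D2:**
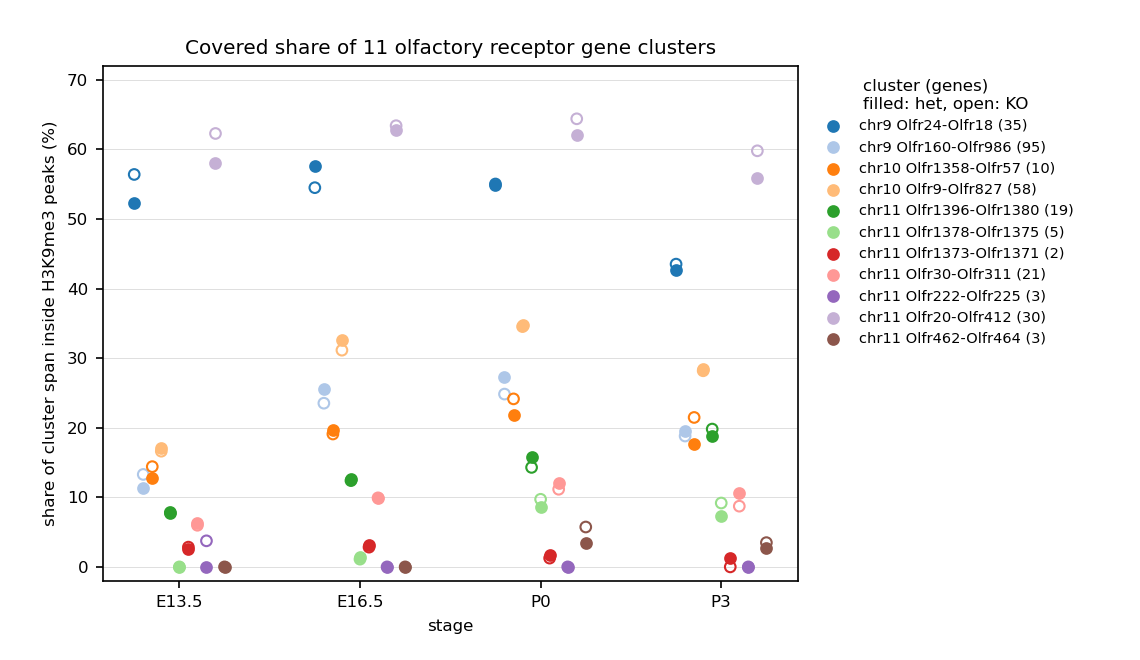
Share of the span of each of 11 olfactory receptor gene clusters inside H3K9me3 peaks (vertical axis, %) at 4 stages, filled circles for het and open circles for KO lists. The clusters chr9 Olfr24-Olfr18 and chr11 Olfr20-Olfr412 lie between 42.7% and 64.4%, above the other clusters in each list.

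In the pair of densely covered clusters the covered stretches followed the span's edges on chromosome 11 and less sharply on chromosome 9. In the 100 kb before the Olfr20 to Olfr412 span between 0 and 4.02% was covered, and in the 100 kb after it between 1.51% and 8.16%. Around the Olfr24 to Olfr18 span the share was 6.33% to 18.7% before and 6.98% to 11.03% after. Within these spans gene bodies were covered over a larger share than the sequence between them. In the chromosome 11 cluster the bodies had 71.3% and the rest 57.1% in the E13.5 het list, and in the chromosome 9 cluster the bodies had 64.8% and the rest 51.4%. Coverage did not fall at the edges of every cluster. The 100 kb after the Olfr1358 to Olfr57 span on chromosome 10 had 25.4% to 49.7%, more than the span itself in each list. The same held after the chromosome 11 cluster that starts at Olfr1378, with 14.3% to 23.1%.

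In the cluster from Olfr20 to Olfr412, 21 of 30 gene bodies were touched in all 8 lists. They include an unbroken run of 13 genes from Olfr376 to Olfr393 (chr11:73371246-73848123, 476.9 kb). Olfr23, whose gene model of 10866 bp is long for this family, was covered over its whole body and both flanks (20866 bp) in each of the 8 lists. Olfr389 was likewise covered over all 14203 bp of its region in each list. The bodies of Olfr1 and Olfr391 were wholly covered in the 8 lists, with 10.9 to 11.2 kb of the region of Olfr1 and 11.5 to 14.2 kb of that of Olfr391 inside peaks. The longest peak found in any cluster was that of the E13.5 KO list over Olfr389, Olfr390 and Olfr391 (chr11:73754412-73808520, 54.1 kb). Of that interval the other 7 lists covered between 49.9 and 53.8 kb. Not every gene of the cluster was covered: the body of 4 genes was touched in no list, among them the neighbours Olfr410 and Olfr411, and Olfr43 had no peak in its flanks either.

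In the cluster from Olfr24 to Olfr18, 24 of 35 gene bodies were touched in all 8 lists. A run of 11 genes from Olfr837 to Olfr855 (chr9:19136928-19585502, 448.6 kb) was touched throughout. Olfr872, with the largest mean covered length of the cluster, had 24.6 and 27.4 kb at E13.5, followed by 24.4 and 24.6 kb at E16.5, then 25.0 and 26.9 kb at P0 and finally 19.9 and 24.0 kb at P3. Olfr77 lay inside the longest cluster peak of the E13.5 het list (chr9:19906675-19957038, 50.4 kb), of which the other lists covered 42.3 to 50.4 kb. The region of Olfr77 was covered in full, 15282 bp, in 7 lists and over 14443 bp in the P3 het list. At the start of the cluster Olfr24 had no covered base within its region in any list, and Olfr832 and Olfr834 none either.

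**Figure D3:**
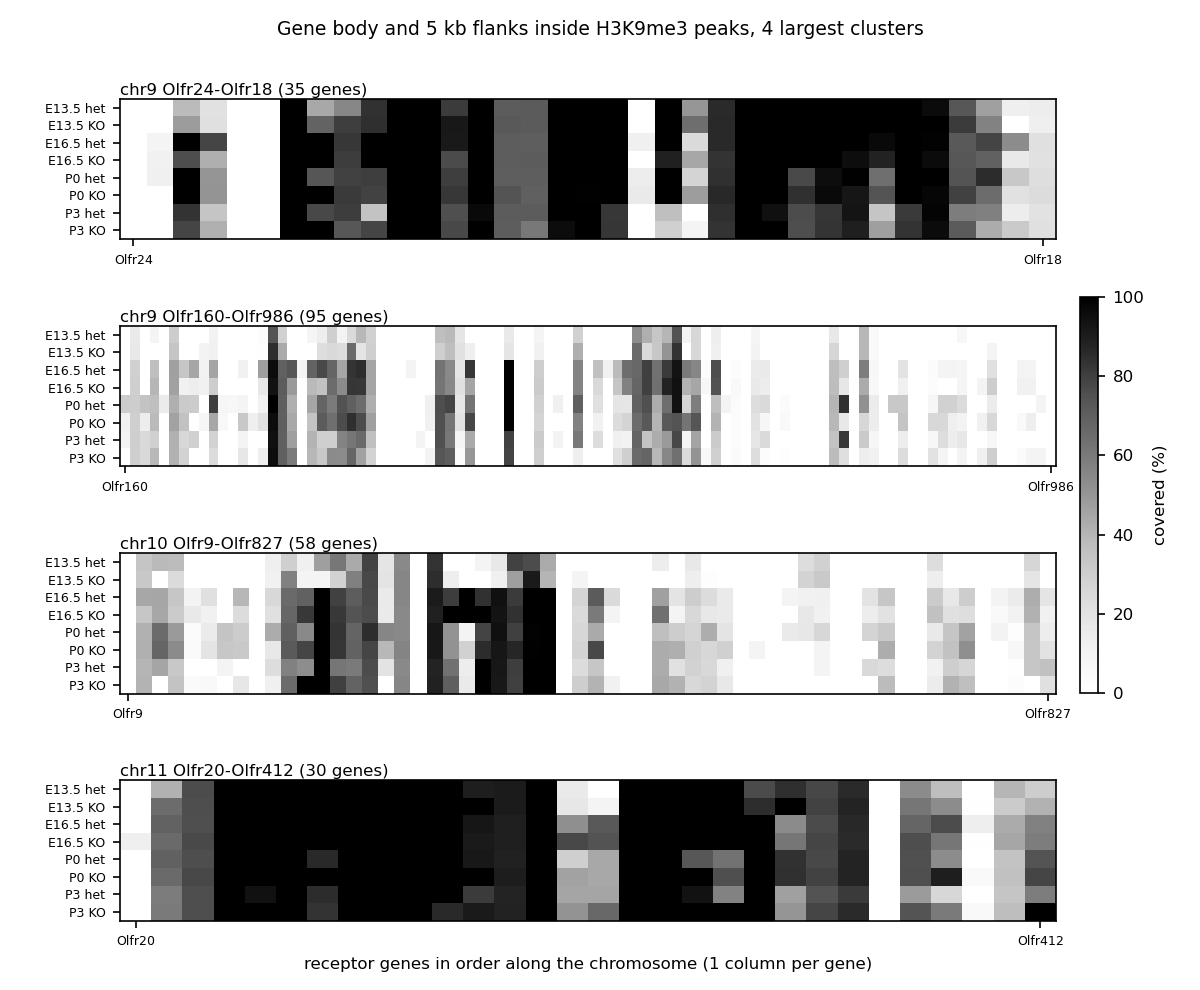
Share of each gene's body and 5 kb flanks inside peaks (grey scale, 0 to 100%), with 1 column per receptor gene in chromosomal order and 1 row per list, for the 4 largest clusters. The dark columns of chr9 Olfr24-Olfr18 and chr11 Olfr20-Olfr412 run through all 8 rows, while in chr9 Olfr160-Olfr986 and chr10 Olfr9-Olfr827 most dark columns start at E16.5.

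The 2 clusters with the most genes were sparsely covered at E13.5 and gained peaks by E16.5. The cluster from Olfr160 to Olfr986 on chromosome 9 (chr9:37706348-40193094, 95 genes, 2487 kb) had 11.4% of its span covered in het and 13.3% in KO at E13.5. At E16.5 it had 25.5% and 23.5%, at P0 27.3% and 24.8%, and at P3 19.5% and 18.8%. The cluster from Olfr9 to Olfr827 on chromosome 10 (chr10:128984914-130216128, 58 genes, 1231 kb) had 17.1% and 16.6%, then 32.6% and 31.1%, then 34.7% and 34.5%, and last 28.4% and 28.2%. Between E13.5 and E16.5 the covered length rose 2.25-fold in het and 1.77-fold in KO in the first cluster, and 1.91-fold and 1.87-fold in the second. The whole lists grew 1.84-fold and 1.49-fold over the same interval, below the ratios of these clusters. The covered length of the densely covered chromosome 9 cluster changed 1.10-fold and 0.966-fold, and that of the chromosome 11 cluster 1.08-fold and 1.02-fold.

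The gains fell on some genes and left the bodies of others bare. In the cluster from Olfr160 to Olfr986, 8 gene bodies were touched in each E13.5 list, rising to 30 (het) and 24 (KO) at E16.5, while 57 bodies were touched in no list. For 25 of these genes the flanks were free of peaks as well. Olfr943 had the largest mean covered length of the cluster, within a long region of 28.8 kb. It had 21.4 and 24.0 kb at E13.5, followed by 26.8 and 27.0 kb at E16.5. At P0 it had 27.0 and 21.4 kb, and at P3 22.5 and 18.2 kb. A run of 8 genes from Olfr944 to Olfr955 (chr9:39217359-39470724, 253.4 kb) starts 32.2 kb after its end and had no touched body in any list. Flanks in this run did hold peaks, such as 8.34 and 8.20 kb in the region of Olfr948 at E16.5. In the cluster from Olfr9 to Olfr827, 10 and 7 bodies were touched at E13.5, and 21 and 20 at E16.5. Olfr792 was wholly covered in all 8 lists, with 8.36 and 9.93 kb of its region at E13.5 and 10.8 to 10.9 kb later. The longest cluster peak of the E16.5 KO list lay over Olfr787, Olfr788, Olfr789 and Olfr790 (chr10:129455070-129506092, 51.0 kb). Of that interval the E13.5 lists covered 5.26 kb (het) and 4.70 kb (KO), the E16.5 het list 47.0 kb, and the later lists 33.9 to 39.0 kb. In the same cluster a run of 12 genes from Olfr808 to Olfr247 (chr10:129767498-129975549, 208.1 kb) had no touched body in any list. Flanks in that run held peaks too, such as 3.65 and 2.16 kb in the region of Olfr818 at E16.5. In the whole cluster 13 genes had no peak in body or flanks.

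The remaining clusters were small or poor in peaks. The cluster from Olfr1358 to Olfr57 on chromosome 10 (chr10:78493183-79040802, 10 genes) had 12.7% to 24.2% of its span covered, and Olfr1356 was its only gene touched in all 8 lists, with 6.99 to 9.58 kb. On chromosome 11 the cluster from Olfr1396 to Olfr1380 (chr11:49107777-49569858, 19 genes) had 7.70% and 7.82% at E13.5 and 18.8% and 19.8% at P3, the highest values in its series. Its gene Olfr1388 was wholly covered in all lists, with 3.59 to 5.58 kb of its region. The cluster from Olfr30 to Olfr311 (chr11:58449915-58847042, 21 genes) had 5.98% to 12.1%. In this cluster Olfr224 had the largest mean covered length, with 1.55 and 1.25 kb of a 14.7 kb region at E13.5 and 4.74 to 6.76 kb later. Most of these bases lay in the flanks, as at most 6.62% of the body was covered in any list. In 4 clusters of 2 to 5 genes on chromosome 11, which start at Olfr1378, Olfr1373, Olfr222 and Olfr462, no gene body was touched in any list and at most 9.72% of a span was covered. In the first of them Olfr51 had the largest mean covered length. It had no covered base before birth, then 3.003 and 3.156 kb at P0, then 2.18 and 4.72 kb at P3. Olfr225 was reached only in the E13.5 KO list, over 1.00 kb, and Olfr463 only in the P0 KO list, over 0.47 kb.

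The RefSeq synonyms place 277 of the genes in families named MOR, for mouse odorant receptor, and a subfamily number groups genes of similar protein sequence. Of the 19 families with at least 5 of these genes, 18 lie in 1 cluster each, and the 20 genes of MOR256 are spread over 4 clusters of chromosome 11. Families of 1 cluster differed widely in coverage. Of the 18 MOR135 genes, all in the Olfr20 to Olfr412 cluster, 15 were touched in all 8 lists, and 80.7% to 91.9% of their summed bodies was covered. Of the 35 MOR171 genes in the Olfr160 to Olfr986 cluster, 5 were touched in all lists and 21 in none. The 9 MOR170 genes of the same cluster had 19.9% of their bodies covered in each E13.5 list, and at E16.5 90.3% (het) and 73.1% (KO). Also in that cluster, the 5 MOR223 genes had 1.30% and 0% at E16.5, and the 10 MOR224 genes 2.19% and 2.35%. In the chromosome 10 cluster from Olfr9 to Olfr827, the 10 MOR111 genes went from 22.1% and 9.28% at E13.5 to 59.1% and 69.0% at E16.5. There, 8 of the 9 MOR110 genes and all 5 MOR210 genes were touched in no list. Genes of 1 family have related sequences, and how the authors placed reads that match several copies was not stated, and its effect on single genes was not tested.

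Other genes inside the spans did not share the coverage of the receptor genes around them in every case. Zfp317, a zinc finger gene inside the densely covered Olfr24 to Olfr18 cluster (chr9:19622038-19649743), had no covered base in any list. Of 2 zinc finger genes inside the Olfr20 to Olfr412 cluster, Zfp735 (chr11:73688778-73713808) had 66.9% to 76.4% of its body covered and Zfp616 (chr11:74060897-74087301) 21.7% to 64.3%. In the clusters with few peaks some genes of other families were covered and others were not. Zfp62 (chr11:49203261-49218816) had 30.4% to 40.7% of its body covered in the 6 lists of E13.5, E16.5 and P3, and none at P0. The gene 2210407C18Rik (chr11:58608204-58613492) had none at E13.5 and 34.4% to 65.6% in the later lists. Ccdc105 had 15.1% to 29.7% in 7 lists and 10.15% in the E13.5 het list, and Slc1a6 0 to 11.5%. Ilvbl, Syde1, Casp14, Btnl9, Mgat1, Trim58 and Fam183b had no covered base in any list. The clusters also hold 76 olfactory receptor pseudogenes, copies that no longer encode a full receptor. Between 38 and 53 of them were touched per list. In the Olfr24 to Olfr18 cluster 11 to 15 of 16 were touched, and in the Olfr160 to Olfr986 cluster 9 to 16 of 31.

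A window of 300 bases at the gene start could be read for 236 of the 281 genes, with 238 windows in all. Because most models start at the coding sequence, the window of most genes is the sequence just before the start codon and not the promoter. Peaks touched 60 windows in het and 62 in KO at E13.5 (25.2% and 26.1%), 95 and 88 at E16.5, 87 and 93 at P0, and 81 and 89 at P3. Over all protein-coding genes 3.95% to 5.35% of windows were touched, and among other olfactory receptor genes 14.08% to 27.75%. TAATTA, searched on both strands, was found in 52 windows (21.8%), against 17.5% of the windows of other olfactory receptor genes and 4.53% of all windows. CCCNNGGG was found in 6 windows (2.52%), against 3.24% and 15.6%. The windows were poor in G and C, with a mean of 36.0% ± 5.78 (SD over 238 windows), against 56.2% over all genes. TAATTA was found in 17 of the 50 windows touched in all 8 lists (34.0%) and in 22 of the 124 touched in none (17.7%). Of the 17 windows, 10 lie in the Olfr24 to Olfr18 cluster, and outside that cluster 7 of 30 windows touched in all lists held it (23.3%). By cluster, it was found in 46.7% of the windows of the Olfr24 to Olfr18 cluster and in 22.2% of those of the Olfr20 to Olfr412 cluster, which was also densely covered. The mean G and C content of the windows touched in all lists was 34.0% and of those touched in none 37.2%, and the part of base composition in the motif shares was not tested. A match is a run of letters and not evidence of a bound factor.

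Over all 281 regions, which cover 3.255 Mb when shared bases are counted once, the covered length was close to equal in het and KO lists. At E13.5 it was 810.4 kb for het against 843.4 kb for KO, 1214 and 1159 kb at E16.5, then 1211 and 1216 kb at P0 and finally 1031 and 1082 kb at P3. The KO to het ratio was 1.04, 0.955, 1.00 and 1.05 in stage order, and that of the whole lists 1.14, 0.923, 1.05 and 1.09. The difference over the receptor genes had the sign of the difference in list size at each stage and was smaller. At P0 its sign was not stable: the KO list held 50.1% of the 2 lists' summed covered length, and 49.6% without the genes of chromosome 11. In the 4 largest clusters the 2 genotypes' peaks lay largely at the same places. The Jaccard index, the length in both lists divided by the length in either, was 0.888 to 0.933 in the Olfr20 to Olfr412 cluster and 0.833 to 0.904 in the Olfr24 to Olfr18 cluster. It was 0.666 to 0.831 in the Olfr160 to Olfr986 cluster and 0.743 to 0.870 in the Olfr9 to Olfr827 cluster.

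**Figure D4:**
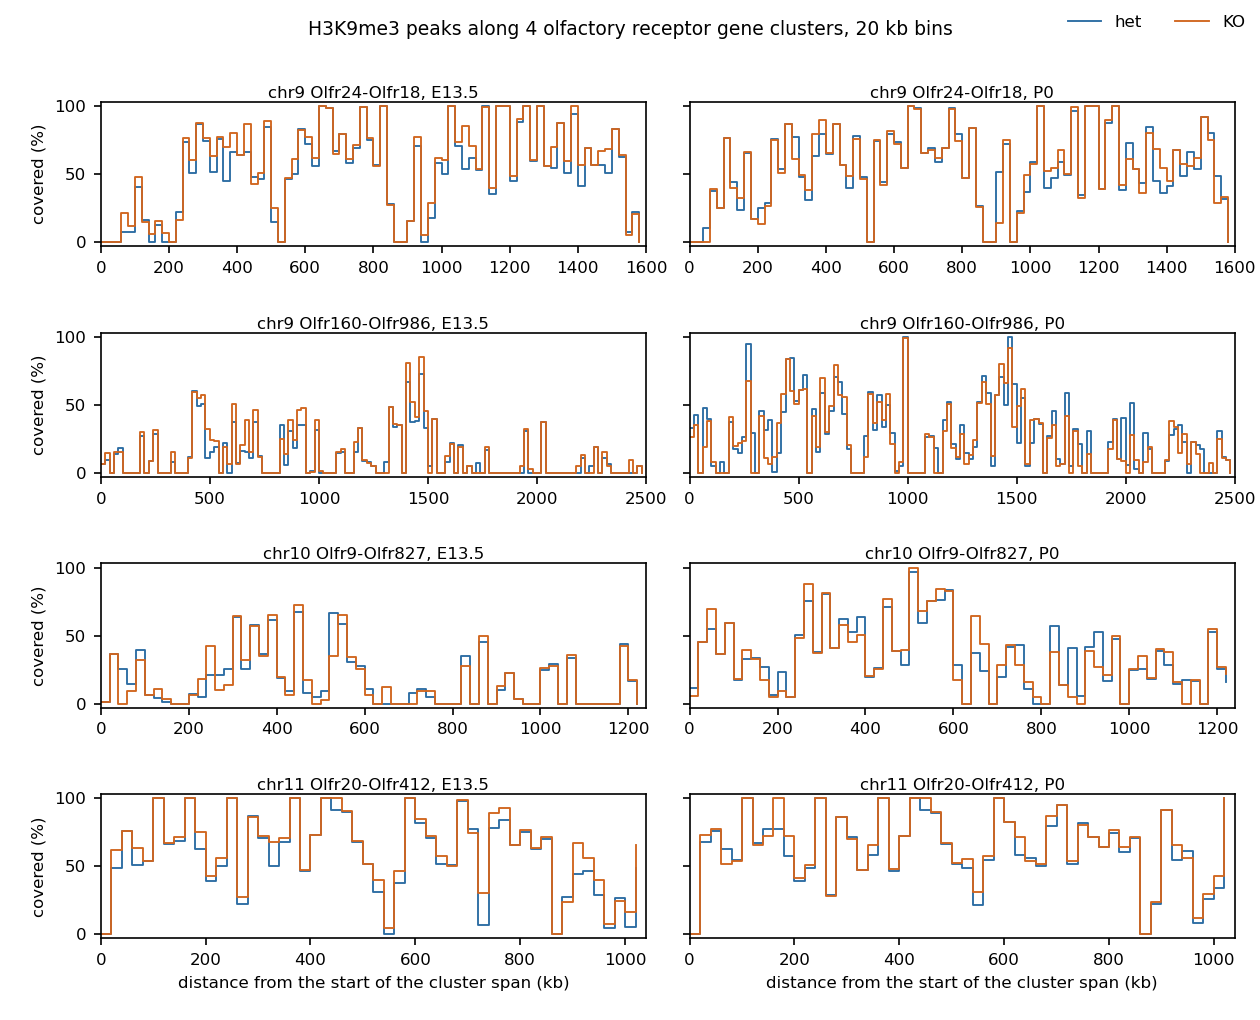
Share of each 20 kb bin inside peaks (vertical axis, %) along the 4 largest clusters, by distance from the start of the span (kb), for E13.5 on the left and P0 on the right, het in blue and KO in orange. The 2 lines of a panel mostly keep to the same peaks and gaps, and the middle rows are higher at P0 than at E13.5, as the cluster shares of 11.4% to 17.1% at E13.5 and 24.8% to 34.7% at P0 give.

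Single genes were called different between genotypes where the covered lengths of body and flanks differed by at least 1.5-fold and 1 kb. At E13.5, 15 receptor genes had more in het and 16 more in KO, which is 5.34% and 5.69%, against 3.63% and 12.8% of all protein-coding genes. At E16.5 the counts were 24 and 5 (8.54% and 1.78%), against 4.98% and 2.71%. At P0 they were 28 and 23 (9.96% and 8.19%), against 4.77% and 15.8%. At P3 they were 24 and 36 (8.54% and 12.8%), against 5.78% and 13.9%. The median difference was 0 bp at each stage, among the receptor genes and among all genes. Among all protein-coding genes KO calls outnumbered het calls at E13.5, P0 and P3. Among the receptor genes het calls were the more numerous at P0 and about as many as KO calls at E13.5. The order at P0 was not particular to them: the receptor genes of chromosome 7 had 21 het and 18 KO calls and the vomeronasal receptor genes 21 and 19, while those of chromosome 2 had 25 and 37. Among the receptor genes of chromosomes 9 to 11 the order at P0 turned without the genes of chromosome 9, with 11 het and 13 KO calls, and for a difference of any size, with 67 and 116. With 1 list per group, the contrast could not be set against a spread between replicates. Of the 28 het calls at P0, 15 fell among the 95 genes of the Olfr160 to Olfr986 cluster and 7 among the 58 of the Olfr9 to Olfr827 cluster. The 19 genes of the Olfr1396 to Olfr1380 cluster had 4. KO calls in these clusters numbered 9, 5 and 3. The 30 genes of the Olfr20 to Olfr412 cluster had no het call and 2 KO calls, and a region covered in full in both lists cannot be called. Few calls made before birth were met again at the next stage, and most calls over all protein-coding genes were not kept either. From E13.5 to E16.5, 2 of 15 het calls and 1 of 16 KO calls were kept, and 1 gene went from KO to het. From E16.5 to P0, 5 of 24 het and 2 of 5 KO calls were kept, and 2 genes switched in each direction. From P0 to P3, 14 of 28 het and 11 of 23 KO calls were kept, 2 genes went from het to KO and none from KO to het. Over all protein-coding genes, 79 of 795 het and 130 of 2802 KO calls at E13.5 were kept at E16.5. Of their calls at E16.5, 102 of 1090 het and 200 of 594 KO calls were kept at P0. Of 1043 het and 3468 KO calls over all protein-coding genes at P0, 425 and 1202 were kept at P3. From P0 to P3, 67 of them went from het to KO and 155 from KO to het.

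**Figure D5:**
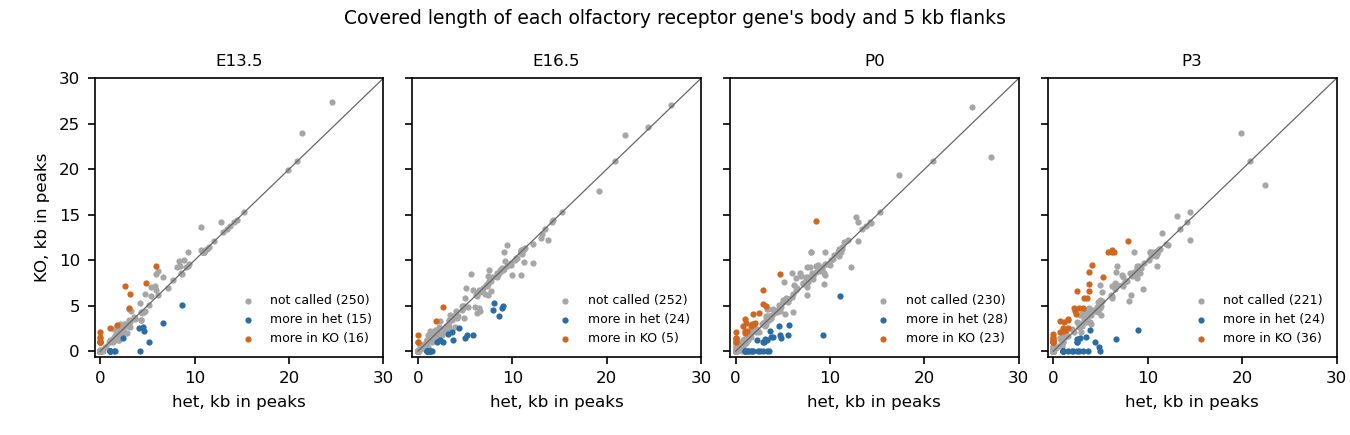
Covered length of body and 5 kb flanks in the KO list (vertical axis, kb) against the het list (horizontal axis, kb), 1 point per receptor gene and 1 panel per stage, with the line of equality. Most points lie on or near the line, and the called genes (blue more in het, orange more in KO) number 15 and 16 at E13.5, 24 and 5 at E16.5, 28 and 23 at P0, and 24 and 36 at P3.

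The largest excess of het over KO, at P0 and again at P3, was at Olfr149 (chr9:39701832-39702767), a MOR224 gene also known as M31. No base of its region was covered at E13.5 in either list. At E16.5 the het list held 3.18 kb and the KO list 1.85 kb, followed by 9.23 and 1.81 kb at P0 and finally 8.94 and 2.38 kb at P3. The gene body was wholly covered in het at P0 and P3, and over 11.2% and 0% in KO. Other MOR224 genes, Olfr975 and Olfr976, were also called higher in het at 3 stages. Olfr975 had 3.10 and 1.39 kb at P0, then 1.52 and 0 kb at P3, while Olfr976 had 3.95 and 1.61 kb at P0, then 2.82 and 1.47 kb at P3. These genes lie 3.49 kb apart and share flanks. Olfr881, of family MOR162, had 4.953 and 1.505 kb at E16.5, then 3.35 and 0 kb at P0 and finally 3.14 and 0 kb at P3. Olfr44, whose window is printed above, had 4.78 and 1.49 kb at P0, then 4.80 and 0.418 kb at P3.

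Neighbouring genes differed in the opposite direction. Olfr979 (chr9:40000206-40001250) and Olfr980 (chr9:40005994-40007029), of family MOR223, begin 39.2 kb after the end of Olfr976 and were called higher in KO at 3 stages. They lie 4.74 kb apart and share flanks, so their values are not independent. Olfr979 had no covered base in any het list, and 1.00, 1.25 and 1.33 kb in KO at E16.5, P0 and P3. Olfr980 had 0 and 1.00 kb at E13.5, followed by 2.36 and 3.34 kb at E16.5, then 1.61 and 2.77 kb at P0 and finally 0.716 and 3.31 kb at P3. Olfr859 in the Olfr24 to Olfr18 cluster was higher in KO at E16.5 (2.65 and 4.84 kb), P0 (2.95 and 5.20 kb) and P3 (0 and 1.00 kb). Several of these differences amount to the presence of 1 peak of the commonest length, 1001 bp. Olfr873 changed direction: het was higher at E13.5 (1.43 and 0 kb), E16.5 (5.85 and 1.78 kb) and P0 (3.59 and 2.25 kb), and KO at P3 (1.54 and 3.44 kb).

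The gene with the largest excess of KO over het at P0 and P3 was Olfr59 (chr11:74283736-74289646) in the Olfr20 to Olfr412 cluster, where P0 het had 8.46 kb and P0 KO 14.3 kb, and 4.04 and 9.53 kb at P3. At E16.5 it was the other way round, 12.2 and 9.73 kb, which did not reach the call. The largest differences at E13.5 were at Olfr765, with 4.22 and 0 kb, and at Olfr251, with 2.65 and 7.21 kb. At E16.5 they were at Olfr25, with 8.55 and 3.87 kb, and at Olfr394, with 5.68 and 8.47 kb, where the second did not reach the 1.5-fold call. At P0 Olfr765 had 7.15 and 7.36 kb, and Olfr25 had 7.50 and 7.87 kb, so neither showed its difference at that stage. At P3 Olfr765 again had more in het, with 4.95 and 0 kb, while Olfr25 had 3.26 and 3.51 kb.

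The 28 genes listed for olfactory signalling, receptor choice and H3K9 methylation all lie outside the 11 clusters, and 13 of them had no peak in the body in any list. That is near the share of all protein-coding genes given above (45.8%), as are the 5 touched in all 8 lists (19.2% of all genes). Among the 13 genes without a peak was Omp, a marker of mature olfactory neurons. Gng13, Cnga4, Rtp1 and Rtp2, which serve the transduction cascade and the export of receptors to the cell surface, also had none. The H3K9 methyltransferase genes Ehmt2, Suv39h1 and Suv39h2, the heterochromatin protein genes Cbx1, Cbx3 and Cbx5, and Trim28 had none either. Other listed genes did hold peaks in the body: Ano2 in 7 lists, Adcy3 and Reep1 in 6 each, the methyltransferase gene Setdb1 in 5 and Cnga2 in 3. Bodies touched in all 8 lists were those of 5 long genes: Gnal, the olfactory G protein subunit, Cngb1, Ric8b, Ebf1 and Ehmt1. Ebf1 had 3.28 and 3.11 kb at E13.5, followed by 6.71 and 5.72 kb at E16.5, then 5.87 and 10.2 kb at P0 and finally 10.1 and 12.5 kb at P3, within a body of 389997 bp. Lhx2 and Emx2, homeobox genes, were touched at E13.5 alone, Lhx2 over 2.002 kb in het and 7.28 kb in KO and Emx2 over 3.004 and 4.205 kb. With flanks included, 2 of the 28 genes had more in het and 4 more in KO at E13.5, 2 and 0 at E16.5, 0 and 5 at P0, and 1 and 3 at P3, against the shares of all genes given above.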

How the data were processed

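The deposited data are 8 peak lists, one for each stage and genotype of the H3K9me3 samples, mapped to their groups by the stage and genotype in their names. Each holds a chromosome, a start and an end, as deposited by the authors, with no height, score or p-value. Per the submitters' processing notes the build was mm10, the same assembly as GRCm38, and bcl2fastq 2.20, cutadapt 1.18, Bowtie2 2.3.4.1, deepTools 3.5.0 and HOMER 4.10 were used. The calling threshold, the use of the 16 H3 samples as control, the handling of 2 samples per group and the placing of reads that match several places are not given in the sources used here. Each list was treated as 1 pooled call set.

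Covered base pairs were computed with Python 3.11.15, numpy 2.4.6 and pandas 2.3.3, from peaks on chromosomes 1 to 19, X and Y, and intervals with scipy 1.17.1. The coverage function and the het or KO call were tested on simulated data. Gene positions, promoter windows and their sequences are those of RefSeq, assembly GRCm38.p6. The table gives no exons, and no genome sequence was used. Coordinates are 1-based. The genes named are, in each cluster of at least 3 genes, the gene with the largest mean covered length of body and flanks. This measure favours long gene models. Also named are the 5 with the highest covered share of the body and those called in 1 direction at 3 or 4 stages. The genes with the largest difference in each direction at each stage and those under the longest peak of each list were named too. Other genes named were chosen after their values were seen. The receptor genes, the pathway list, the clusters and the tests were chosen with earlier results of these data known. Alternatives covered peak length, list size, flank length, the size of a called difference, the gap between clusters and single chromosomes.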

Additional observations from a re-analysis of the deposited data

Results flagged for a closer look

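The difference between KO and het in the length of receptor gene regions inside peaks changed sign between stages. At E16.5 the KO list covered less than the het list, with a difference of -54.7 kb over the 281 genes and their flanks. At E13.5 the KO list covered 33.0 kb more, at P0 5.40 kb more and at P3 51.9 kb more. With 1 list per group the difference between stages was not tested. The whole lists differed in the same direction at each stage, with KO to het ratios of 1.14, 0.923, 1.05 and 1.09 in stage order, and the part of list size in the receptor gene differences was not tested. No group had enough lists for a search for outlying samples.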

How the results depend on the processing

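No paired analysis was possible because each group has 1 peak list and the lists carry no replicate number. The KO share of the length covered in receptor gene regions was 51.0%, 48.9%, 50.1% and 51.2% from E13.5 to P3. It kept its side of 50% at E13.5, E16.5 and P3 in the 10 alternatives run. At P0 it fell below 50% with the longer 50% of peaks (49.95%), equal numbers of peaks (49.99%), 10 kb flanks (49.99%), whole cluster spans (49.71%), no chromosome 10 (49.95%) or no chromosome 11 (49.63%), so no direction holds at that stage.

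Shares of genes touched moved beyond their counting interval with the region used. With 2 kb flanks they were, in stage order and het before KO, 35.9%, 36.3%, 53.7%, 50.2%, 56.6%, 56.6%, 52.3% and 53.7%. With 10 kb flanks they were 59.4%, 60.9%, 77.6%, 76.2%, 82.2%, 82.6%, 77.2% and 75.4%. With the longer 50% of peaks and 5 kb flanks they were 38.8%, 39.5%, 54.1%, 51.6%, 59.4%, 56.9%, 51.2% and 50.2%, and the body share of P3 het was 32.7%. Bodies covered over at least 50% were 33.4% and 31.7% at E16.5, 33.1% in P0 het, and 30.6% and 34.5% at P3. The window of 10 kb around the midpoint, chosen after seeing the data, left all 8 shares within their intervals.

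Counts of called genes depend on the size asked for. At 2-fold and 2 kb they were 4 het and 2 KO at E13.5, 5 and 0 at E16.5, 13 and 4 at P0, and 11 and 7 at P3. For a difference of any size they were 48 and 67, 90 and 63, 67 and 116, and 64 and 107. In gene bodies alone they were 0 and 3, 4 and 1, 4 and 1, and 6 and 2. Without chromosome 9 they were 8 and 8, 7 and 3, 11 and 13, and 12 and 20. Without chromosome 10 the het count at E13.5 was 7, and without chromosome 11 the KO counts were 2 at E16.5 and 15 at P0. With 10 kb flanks the KO count at E16.5 was 2, and with equal numbers of peaks it was 8. With the longer 50% of peaks the het counts were 9 at E13.5 and 13 at E16.5 and the KO count at P0 was 14, and without the shortest peaks the het count at E13.5 was 9. The order of het and KO counts at P0 thus turned for a difference of any size and without chromosome 9.

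With equal numbers of peaks all 28 het calls of P0 and 22 of 23 KO calls were kept, and at P3 24 of 24 and 31 of 36. With the longer 50% of peaks fewer were kept, 7 of 15 het and 8 of 16 KO calls at E13.5. The counts were 11 of 24 and 2 of 5 at E16.5, and 19 of 28 and 11 of 23 at P0. At P3 they were 11 of 24 and 21 of 36. In this setting 1 het call of E13.5 became a KO call. The covered share of clusters was set against a Wilson interval that took each kb of the span as 1 count. Neighbouring kb often lie under the same peak, so this interval is a yardstick and no measure of error. The share stayed within it in 88 of 88 values with equal numbers of peaks and in 51 of 88 with the longer 50%. Under each of these settings the clusters from Olfr24 to Olfr18 and from Olfr20 to Olfr412 stayed above the other clusters of at least 10 genes in each list, with a lowest value of 40.1% against a highest of 34.7%. Read depth is unknown and sets a limit on short and weak peaks that these lists cannot give.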
